A study of Mus musculus with 6 samples.

Results

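The 35 genes described here encode proteins of autophagy and of the lysosome, and they were chosen by gene symbol. All 35 were found among 54309 genes listed for mouse sciatic nerve. They comprise 6 genes of autophagosome initiation (Ulk1, Ulk2, Atg13, Becn1, Atg14, Atg9a) and 8 of the ATG12 and ATG8 conjugation systems and their WIPI partners (Atg3, Atg5, Atg7, Atg10, Atg12, Atg16l1, Wipi1, Wipi2). The others are 4 ATG4 proteases (Atg4a to Atg4d), 5 members of the ATG8 family (Map1lc3a, Map1lc3b, Gabarap, Gabarapl1, Gabarapl2), 3 cargo receptors (Sqstm1, Nbr1, Optn), 2 transcription factors (Tfeb, Tfe3), 3 lysosomal membrane proteins (Lamp1, Lamp2, Mcoln1) and 4 cathepsins (Ctsb, Ctsd, Ctsl, Ctss).

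The mice were C57BL/6 animals aged 6 to 8 weeks, and RNA was taken from their left sciatic nerve, distal to the operated site, 24 h after surgery. There were 3 libraries from female nerves and 3 from male nerves, each made from tissue of 2 pooled animals. The labels give axotomy, the cutting of the nerve, as the treatment of all 6 libraries, whereas their surgical protocol describes a sham exposure that left the nerve uncut, so whether the nerves had been cut cannot be read from the labels. Both sexes share the same labelled surgery, and the comparison that the design sets up is female against male. No library of an unoperated nerve was used here.

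Autophagy wraps cytoplasm in a double membrane, the autophagosome, which then fuses with the lysosome, where acid hydrolases digest the cargo. The ULK kinases and the Beclin 1 complex start the membrane, the ATG conjugation enzymes attach ATG8 proteins to it, and receptors such as p62 (Sqstm1) tie cargo to those ATG8 proteins. In injured nerve, Schwann cells are known to degrade their own myelin by autophagy, and macrophages, which are rich in lysosomes, take up the remaining debris.

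Libraries held 55272138 to 77610593 estimated reads, and every member had at least 329 reads in every library, so that all 35 passed the filter on low counts. Sox10, the transcription factor gene that marks Schwann cells, stood at 88.7 to 108 TPM in female nerves and 111 to 144 TPM in male nerves. TPM is a transcript's abundance per length, scaled to the same total in every library. Summed TPM of 10 skeletal muscle genes was 1402 in female 2 and 699 in male 1, against 9.79 to 26.7 in the other 4 libraries. Values without both libraries are given below for several of the differences they move.

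Lamp2 encodes LAMP-2, an abundant glycoprotein of the lysosomal membrane that is needed for the fusion and maturation of autophagic vacuoles. The gene lies on the X chromosome (GRCm38, minus strand, chrX:38401357-38456454), and its 3 protein-coding transcripts share 8 exons with 1108 coding bases and end in different ninth exons. The last exon encodes the membrane-spanning segment and the short cytosolic tail. Transcript Lamp2-201 encodes LAMP-2A, the form known as the receptor of chaperone-mediated autophagy, Lamp2-202 encodes LAMP-2B and Lamp2-203 encodes LAMP-2C. The coding part of each last exon, from GENCODE M21, is shown because these stretches are where the 3 forms differ, with the 10 codons before the stop codon in capitals.
Lamp2-201, chrX:38405432-38405571, minus strand: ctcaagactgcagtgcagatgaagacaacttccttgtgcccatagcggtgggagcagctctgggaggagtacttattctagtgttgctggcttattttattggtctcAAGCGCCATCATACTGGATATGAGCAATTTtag
Lamp2-202, chrX:38421712-38421851, minus strand: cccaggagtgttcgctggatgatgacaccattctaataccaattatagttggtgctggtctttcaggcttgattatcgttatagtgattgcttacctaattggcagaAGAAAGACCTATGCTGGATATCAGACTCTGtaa
Lamp2-203, chrX:38402139-38402281, minus strand: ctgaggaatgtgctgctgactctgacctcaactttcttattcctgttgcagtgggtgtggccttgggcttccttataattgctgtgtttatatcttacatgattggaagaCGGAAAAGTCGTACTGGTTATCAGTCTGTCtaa
Aligned over their length, the last-exon stretches of Lamp2-201 and Lamp2-202 were identical at 56.7% of positions, those of Lamp2-201 and Lamp2-203 at 55.9%, and those of Lamp2-202 and Lamp2-203 at 63.7%.

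LAMP-2B was the leading Lamp2 form in all 6 libraries. Lamp2-202 was at 272, 314 and 287 TPM in females 1 to 3 and at 234, 292 and 312 TPM in males 1 to 3. Lamp2-201, the LAMP-2A transcript, was at 109, 111 and 104 TPM in females and at 88.3, 108 and 110 TPM in males. Male 1 was the lowest library for both transcripts, and the sexes overlapped. Lamp2-202 held 72.0% ± 1.31 of Lamp2 TPM in female nerves and 72.1% ± 0.727 in male nerves (SD, n = 3 each), and Lamp2-201 held 26.8% ± 1.28 and 26.5% ± 0.710. The ratio of Lamp2-202 to Lamp2-201 lay between 2.50 and 2.84 in all 6 libraries.

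The share of Lamp2-201 differed between female and male nerves by 0.316 percentage points (two-sided exact permutation p = 0.8, n = 3 each) and that of Lamp2-202 by -0.102 points (exact permutation p = 1.0, n = 3 each). Adjusted over these 2 transcripts by Benjamini-Hochberg, both p-values were 1.0. The smallest p that 3 against 3 libraries allow is above 0.05, so these values do not show that the shares are equal. The signs turned in shares of reads, at -0.161 and 0.355 points. LAMP-2C was the rare form, and its transcript fell below the 1% share set for a test. Lamp2-203 held 0.711%, 0.564% and 0.654% of Lamp2 TPM in females 1 to 3, against 1.0025%, 0.818% and 0.613% in males 1 to 3, from 133 to 265 reads per library. The remaining Lamp2 transcripts, Lamp2-204 with a retained intron and the processed transcript Lamp2-205, held 0.290% and 0.340% of Lamp2 TPM on average.

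**Figure D1:**
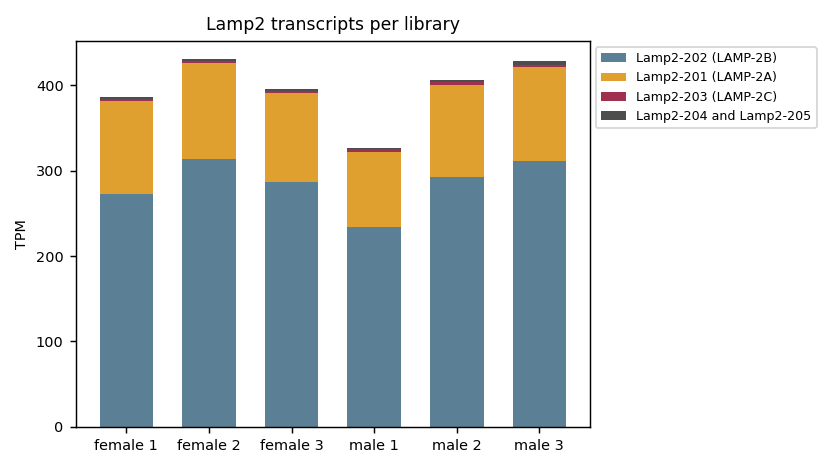
TPM of the Lamp2 transcripts in each of the 6 libraries (bars, 1 library each; colours, transcripts; the y axis starts at 0). Lamp2-202 (LAMP-2B) takes 70.5% to 73.0% of every bar, Lamp2-201 (LAMP-2A) 25.7% to 28.2%, and the shortest bar is male 1.

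Across the 35 genes, mean levels spanned from 5.85 TPM for Atg14 to 1515 TPM for Ctsb, with a median of 41.1 TPM, against 9.70 TPM over all 19129 genes tested. Of the 35, 33 lay above the median of all tested genes, and 11 had a mean over 100 TPM. Cathepsins were highest (735 to 1515 TPM), followed by Lamp1 (658 TPM), Gabarap (545 TPM), Lamp2 (396 TPM) and Sqstm1 (208 TPM), and the next gene, Map1lc3b, averaged 145 TPM. The ranges over the 6 libraries separated 7 of the 34 neighbouring pairs in this order. They were apart from Lamp1 to Gabarap, Gabarap to Lamp2, Lamp2 to Sqstm1, Sqstm1 to Map1lc3b, Becn1 to Atg3, Nbr1 to Atg4b and Mcoln1 to Wipi1, and every other neighbouring pair overlapped, including all neighbours among the cathepsins.

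**Figure D2:**
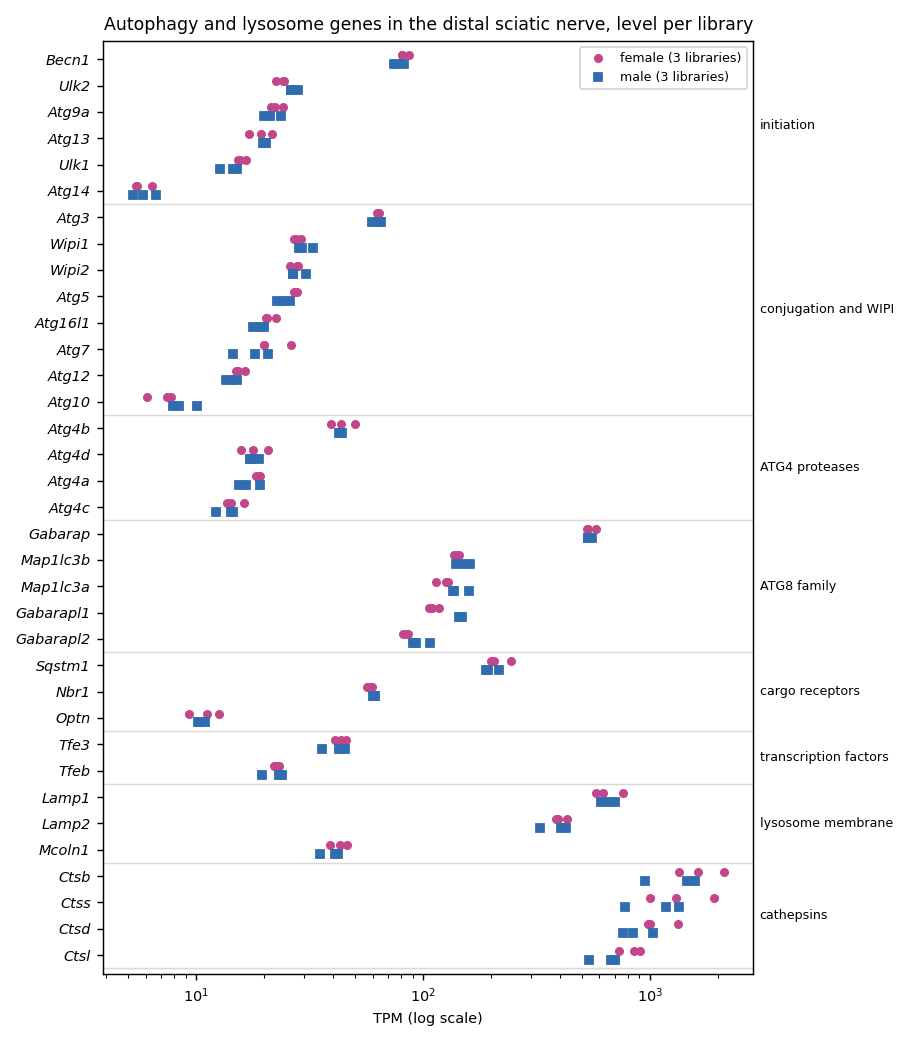
Level of each of the 35 genes in TPM (log axis) in the 3 female libraries (circles) and the 3 male libraries (squares), grouped by role. Cathepsins lie between 538 and 2115 TPM, and Atg14 and Atg10 lie lowest, between 5.26 and 10.04 TPM.

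Levels of most members were steady between libraries. The coefficient of variation over the 6 libraries (SD over mean, sexes pooled) had a median of 8.73% for the 35 genes, against 9.23% for the 9481 tested genes with a mean of at least 10 TPM. It was under 10% for 24 members and lowest for Nbr1 (2.97%), Atg3 (3.09%) and Gabarap (3.604%). It was over 20% for Ctsb (25.2%), Ctsd (20.01%) and Ctss (30.6%), the 3 members that varied most.

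The cathepsins digest proteins in the lysosome. Ctsb and Ctsl encode cysteine proteases, Ctsd an aspartic protease and Ctss a cysteine protease known from antigen-presenting cells. Ctsb was at 1633, 2115 and 1341 TPM in females 1 to 3 and at 951, 1587 and 1459 TPM in males 1 to 3. Ctss was at 1303, 1913 and 1004 TPM in females and at 779, 1348 and 1183 TPM in males. For all 4 cathepsins female 2 was the highest library and male 1 the lowest. Ctsd ranged from 986 to 1338 TPM in females and from 761 to 1028 TPM in males, and these overlapped. For Ctsl the sexes did not overlap, at 734 to 902 TPM in females and 538 to 702 TPM in males. The 4 cathepsins together made up 62.7%, 66.6% and 59.1% of the summed TPM of the 35 genes in females 1 to 3, against 51.4%, 60.7% and 58.0% in males 1 to 3.

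All 4 cathepsins had a log2 fold change (female minus male) between 0.32 and 0.34, and none passed the test. Ctsl had 0.33 (SE 0.11, adjusted p = 0.239 by edgeR's quasi-likelihood test), Ctsd 0.34 (SE 0.16, adjusted p = 0.363 by edgeR), Ctsb 0.32 (SE 0.19) and Ctss 0.33 (SE 0.26). The differences of Ctsb, Ctsd and Ctss shrank most when female 2 and male 1 were left out. Without both libraries the log2 fold changes were 0.22 for Ctsl, 0.14 for Ctsd, 0.02 for Ctsb and -0.105 for Ctss. Without female 2 alone they were 0.26, 0.18, 0.13 and 0.05 in the same order, and without male 1 alone they were 0.28, 0.30, 0.22 and 0.17. The remaining libraries had Ctsl at 853 and 734 TPM in females 1 and 3 and at 702 and 678 TPM in males 2 and 3. Since the sexes did not overlap with all libraries in, leaving some out could not make them overlap. Leaving out female 3 put Ctss at 0.52.

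The summed level of macrophage markers was highest and lowest in the same libraries as the cathepsins. The summed TPM of 13 macrophage markers was 5184, 5673 and 4258 in females 1 to 3, against 3535, 5192 and 4569 in males 1 to 3. All 13 were tested, none was at 0 in any library, and none passed. Of the 13, 10 had a log2 fold change above 0 (median 0.10), against 53.6% of all genes. Their log2 fold changes ran from -0.17 for Mertk and -0.12 for Cd163, through 0.02 for C1qa and 0.16 for Lyz2, to 0.36 for Cd68 and 0.43 for Itgam. Lyz2, the largest part of the sum, was at 2753, 2564 and 2261 TPM in females 1 to 3, against 1888, 2762 and 2038 TPM in males 1 to 3, and was highest in male 2. The cathepsin sum divided by this marker sum was 0.924, 1.10 and 0.955 in females and 0.857, 0.898 and 0.911 in males, so that every female library was above every male library in this ratio, which was chosen after the values were seen and is given without a test. Neutrophil markers lay further to the female side, with 8 of 9 above 0 (median 0.51), against 53.6% of all genes. None passed, and none was at 0 in any library. For 4 of the 9 every female library was above every male library, against 8.63% of all genes. Their summed TPM was 5902, 2900 and 5350 in females 1 to 3, against 4423, 3451 and 2109 in males 1 to 3, so that female 2, the highest library for the cathepsins, was the lowest female library here. The part of macrophages and neutrophils in the cathepsin levels was not tested, and in whole nerve fewer cells of a type and less RNA per cell cannot be told apart. Female 2 also had the largest sum of 8 adipocyte genes, 1812 TPM against 491 to 1117 TPM in the other libraries.

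**Figure D3:**
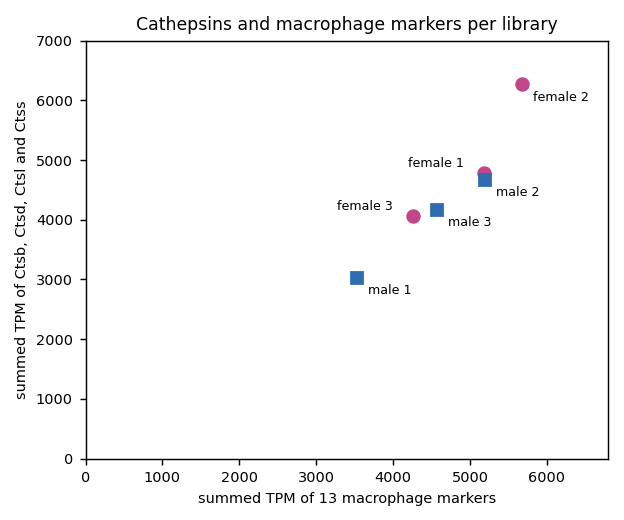
Summed TPM of the 4 cathepsin genes (y axis) against summed TPM of 13 macrophage markers (x axis) in each library (circles female, squares male; both axes start at 0). Male 1 is lowest on both axes (3029 and 3535 TPM) and female 2 highest on both (6268 and 5673 TPM).

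The ATG8 family supplies the lipid-anchored proteins of the autophagosome membrane, with the LC3 genes in 1 branch and the GABARAP genes in another. Gabarap, the most abundant of the family, ranged over 527 to 579 TPM in females and over 535 to 558 TPM in males, and it held 52.7% to 56.3% of the family's summed TPM in females and 48.2% to 52.1% in males. Gabarapl1 was at 109, 106 and 118 TPM in females 1 to 3 and at 146, 144 and 148 TPM in males 1 to 3. Every female library was thus below every male library for Gabarapl1. Map1lc3a, which encodes LC3A, was at 127, 114 and 128 TPM in females and at 159, 137 and 135 TPM in males, and Gabarapl2 ranged from 81.6 to 85.9 TPM in females and from 90.3 to 107 TPM in males. Those 2 genes also did not overlap between the sexes, whereas Map1lc3b, the LC3B gene, did, at 137 to 144 TPM and 140 to 161 TPM.

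Gabarapl1 had the smallest adjusted p of the 35 genes. Its log2 fold change was -0.41 (SE 0.08), and with an adjusted p of 0.127 by edgeR it did not pass the threshold of 0.05. The call depends on the tool and the filter. DESeq2 gave an adjusted p of 0.000655, and edgeR without a filter on low counts gave 0.0435. In the other alternatives the log2 fold change ran from -0.46 to -0.32 and the adjusted p from 0.0647 to 0.367. Map1lc3a had -0.24 (SE 0.09, adjusted p = 0.312 by edgeR), Gabarapl2 -0.20 and Map1lc3b -0.13. Without female 2 and male 1 these 3 were at -0.09, -0.07 and -0.05, and without male 1 alone at -0.14, -0.09 and -0.06. Gabarap was at -0.02, and its sign turned to 0.02 with libraries scaled by total count. The share of the family's TPM held by Gabarapl1 was 10.3% to 11.8% in females and 13.2% to 14.0% in males.

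Schwann cell and myelin markers lay in the same direction as these ATG8 genes. Summed TPM of 10 genes of myelinating Schwann cells was 7233 to 10777 in females and 13614 to 17418 in males, and that of 6 general Schwann cell genes was 410 to 582 in females and 641 to 761 in males. All 10 and all 6 had a log2 fold change below 0, where 53.6% of all genes were above 0. None of them passed, and none was at 0 in any library. Nerve fibroblast genes, 8 in number, summed to 4316 to 5017 TPM in females and 5713 to 7795 TPM in males, and 7 of them were below 0. The part of these cells in the ATG8 levels was not tested. Without female 2 and male 1, which held the lowest and the highest myelin sum, the log2 fold change of Gabarapl1 was -0.32.

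Of the conjugation genes, Atg3, the E2-like enzyme that hands ATG8 proteins to their lipid anchor, was the most abundant, at 62.8 to 64.1 TPM in females and 59.5 to 65.1 TPM in males. Atg5, which is joined to ATG12 in the complex that directs this step, was at 26.99, 27.8 and 27.3 TPM in females and at 22.7, 26.0 and 24.4 TPM in males, with no overlap and a log2 fold change of 0.17 (SE 0.07, adjusted p = 0.335 by edgeR). Atg16l1, the third part of that complex, was at 20.2 to 22.4 TPM in females and 17.8 to 20.01 TPM in males, again without overlap. Atg10, the E2-like enzyme for ATG12, went the other way, at 6.09, 7.72 and 7.41 TPM in females and at 7.94, 8.40 and 10.04 TPM in males, with a log2 fold change of -0.32 (SE 0.11, adjusted p = 0.267 by edgeR). Neither gene passed. Atg7, the E1-like enzyme of both systems, varied most among them, with 26.1 TPM in female 2 and 14.6 TPM in male 1, and its log2 fold change was 0.15, or 0.01 without both libraries. With a length offset, which corrects counts for transcript length, the log2 fold change of Atg7 was 0.30. With limma on log2(TPM + 1) it was 0.29, and it passed in neither. Atg12, the ubiquitin-like partner of Atg5, was at 14.9 to 16.4 TPM in females and 13.5 to 15.1 TPM in males, and it overlapped between the sexes, as did the phosphoinositide-binding Wipi1 and Wipi2 (25.9 to 32.6 TPM over all libraries).

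The initiation genes were expressed at 5.85 to 80.1 TPM on average, with Becn1 highest. Ulk2 and Ulk1 encode related kinases that start autophagosome formation, and they lay in opposite directions. Ulk2 was at 22.4, 24.1 and 24.3 TPM in females and at 26.2, 26.2 and 28.1 TPM in males, a log2 fold change of -0.17 (SE 0.06, adjusted p = 0.274 by edgeR). Ulk1 was at 15.2, 15.6 and 16.6 TPM in females and at 12.8, 14.5 and 15.2 TPM in males, a log2 fold change of 0.11 (SE 0.07, adjusted p = 0.519 by edgeR). The sexes did not overlap for either kinase, although for Ulk1 the nearest libraries, female 1 and male 3, were at 15.22 and 15.21 TPM, and neither passed. Atg13, a partner of the ULK kinases, Atg14, a subunit of the Beclin 1 complex, Becn1 and Atg9a, a membrane protein of the vesicles that seed autophagosomes, overlapped, with log2 fold changes from -0.08 to 0.04. Without female 2 and male 1 Atg14 was at -0.17, against -0.04 with all libraries.

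Among the cargo receptors, Sqstm1 was the most abundant, at a mean of 208 TPM over the 6 libraries, with Nbr1 at 59.4 TPM and Optn, the optineurin gene, at 10.75 TPM. Sqstm1 ranged from 199 to 245 TPM in females and from 189 to 216 TPM in males. Nbr1 was the steadiest of the 35 genes, and still its narrow ranges of 56.6 to 59.5 TPM in females and 60.0 to 61.4 TPM in males did not overlap, with a log2 fold change of -0.12 (SE 0.07, adjusted p = 0.483 by edgeR). The 4 ATG4 proteases, which trim ATG8 proteins and release them from membranes, had mean levels of 14.2 to 43.7 TPM, and none separated the sexes.

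TFEB and TFE3 are transcription factors known to switch on lysosomal and autophagy genes through E-box sequences. Tfe3 was the more abundant, at 41.02 to 45.9 TPM in females and 35.7 to 45.4 TPM in males, and Tfeb was at 21.9 to 23.3 TPM in females and 19.5 to 24.0 TPM in males. Tfe3 had a log2 fold change of 0.05 and Tfeb one of -0.02, with SEs of 0.07 and 0.09. Mcoln1, a lysosomal calcium channel gene, was at 38.8 to 46.3 TPM in females and 35.1 to 42.3 TPM in males, and Lamp1 was at 579 to 759 TPM in females and 611 to 702 TPM in males. Both overlapped. The 3 X-linked members, Lamp2, Tfe3 and Atg4a, had log2 fold changes of 0.08, 0.05 and 0.08, and none passed. Without female 2 and male 1 they were 0.02, 0.03 and 0.08.

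The E-box CACGTG, which reads the same on both strands, was sought in RefSeq promoters of GRCm38.p6, each from 250 bases before to 50 bases after an annotated start. Promoters were matched for 30 of the 35 genes, and 8 of them held the motif (26.7%), against 8.09% of 27025 genes. The 8 were Atg3, Atg5, Atg7, Atg14, Ctsd, Ctsl, Lamp1 and Mcoln1. For Atg7 the annotated start lay inside the gene, with the motif within chr6:114670937-114670996 and the gene beginning at chr6:114643097. The same held for Atg14 on the minus strand, with the motif within chr14:47568403-47568462 and the gene beginning at chr14:47570649. Atg12, Atg16l1, Becn1, Ctsb and Map1lc3a had no matched promoter. The longer TCACGTGA, which contains the E-box, was in the promoters of Atg3, Ctsd and Mcoln1 (10% of the 30, against 1.12% of all genes). The 7 lists of pathway genes described below had 12 to 31 matched promoters each. Their shares ran from 10.5% to 33.3% for CACGTG and from 0% to 25.0% for TCACGTGA. These shares are descriptions of the sequence and say nothing of binding. The promoters of Atg3, Ctsd and Mcoln1, and of Lamp1, which holds 4 copies of CACGTG, are shown from 110 bases before to 10 bases after the start, with the motifs in capitals.
Ctsd, chr7:142387818-142387937, minus strand: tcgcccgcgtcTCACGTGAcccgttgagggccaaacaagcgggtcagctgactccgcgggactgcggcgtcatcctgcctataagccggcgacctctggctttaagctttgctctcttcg
Lamp1, chr8:13159051-13159170, plus strand: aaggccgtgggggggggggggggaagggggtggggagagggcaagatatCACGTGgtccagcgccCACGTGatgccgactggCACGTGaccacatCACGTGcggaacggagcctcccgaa
Mcoln1, chr8:3500409-3500528, plus strand: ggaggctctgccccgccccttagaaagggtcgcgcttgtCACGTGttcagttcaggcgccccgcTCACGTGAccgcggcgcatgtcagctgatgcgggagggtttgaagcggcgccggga
Atg3, chr16:45158719-45158838, plus strand: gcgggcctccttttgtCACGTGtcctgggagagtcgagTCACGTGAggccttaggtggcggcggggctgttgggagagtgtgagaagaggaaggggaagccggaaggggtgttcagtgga
The 4 genes differed in level, from 41.1 TPM for Mcoln1 to 992 TPM for Ctsd on average, and in log2 fold change, from -0.03 for Lamp1 to 0.34 for Ctsd.

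Over the whole set, 0 of the 35 genes passed at an adjusted p under 0.05 by edgeR, which called 0.11% of the 19129 genes tested (0.0157% higher and 0.0941% lower in females). By limma-voom 0 passed as well, against 0.125% of all genes. DESeq2 called 1 member, Gabarapl1, where it called 5.28% of the 16483 genes to which it gave an adjusted p, 3.87% on the lower side. EdgeR without a filter on low counts also called that 1 gene, against 0.598% of 31923 genes, 0.46% on the lower side. At an unadjusted p under 0.05 edgeR counted 6 of the 35 (17.1%), against 14.6% of all genes. The 6 were Atg5 and Ctsl on the female side and Atg10, Ulk2, Map1lc3a and Gabarapl1 on the male side. Every female library was above every male library in TPM for 4 members (11.4%, against 8.63% of all genes), and below for 6 members (17.1%, against 10.9% of all genes). Log2 fold changes were above 0 for 20 and below 0 for 15 members, where 53.6% of all genes were above 0. Their median was 0.04, against 0.02 over all genes, and it was 0.01 without female 2 and male 1. Their median size was 0.10, against 0.14 over all genes.

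**Figure D4:**
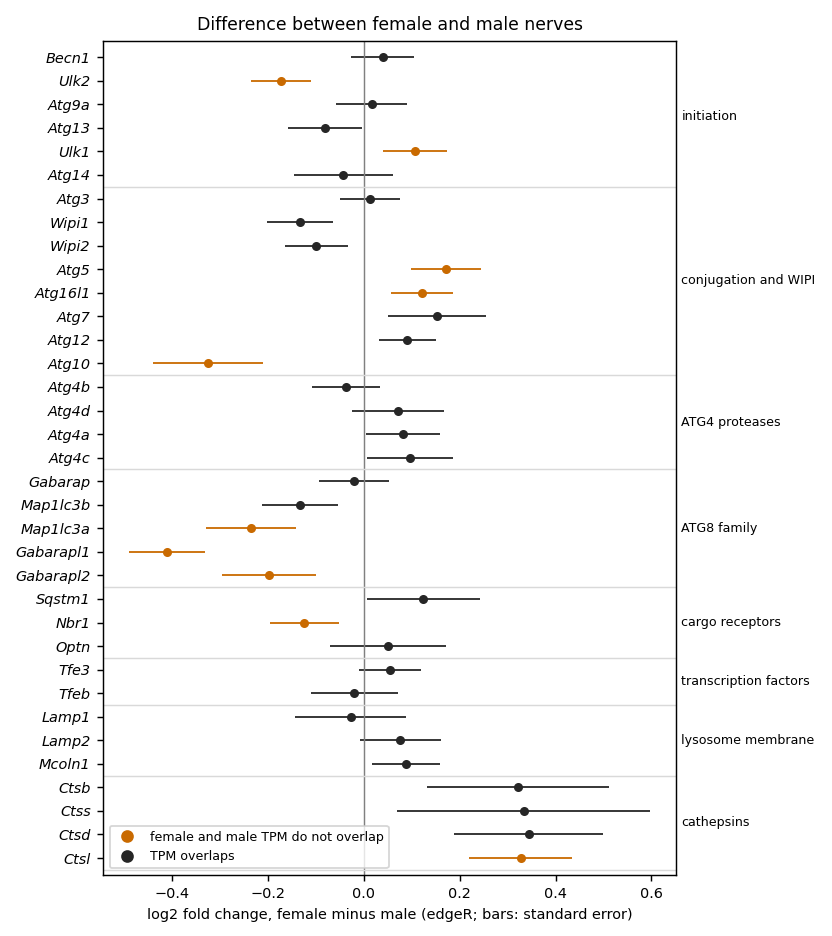
Log2 fold change (female minus male) of each of the 35 genes from edgeR, with its standard error as a bar, grouped by role. The 4 cathepsins lie at 0.32 to 0.34 and Gabarapl1 at -0.41, and orange marks the 10 genes whose TPM does not overlap between the sexes.

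Several members were read largely from transcripts that are not annotated as protein-coding, that is, from transcripts with a retained intron, processed transcripts or targets of nonsense-mediated decay. These took over 20% of the gene's TPM for 11 of the 35 genes and over 10% for 15. By reads, which weigh long transcripts more, they took over 20% for 7 genes (Atg4b, Atg4d, Atg9a, Atg16l1, Becn1, Map1lc3a and Mcoln1) and over 10% for 11. Atg4d stood at the top, with 93.0% to 95.4% of its TPM, and 74.7% to 82.5% of its reads, in such transcripts. Its 2 leading transcripts, Atg4d-203 (7.84 TPM on average) and Atg4d-205 (7.69 TPM), both have a retained intron, while its only protein-coding transcript, Atg4d-201, was at 0.941 TPM (5.27% of the gene's TPM and 19.96% of its reads). Becn1 followed with 83.4% to 85.8% of TPM and 75.2% to 79.5% of reads, led by Becn1-201, a target of nonsense-mediated decay at 18.7 TPM, and Becn1-202, with a retained intron, at 18.5 TPM. Its highest protein-coding transcript, Becn1-205, was at 8.21 TPM.

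For Ctsb the choice of unit mattered. The short transcript Ctsb-202, with a retained intron and a length of 801 bases, took 45.6% of the gene's TPM and 10.7% of its reads, and the protein-coding Ctsb-201, of 4743 bases, took 54.4% of the TPM and 89.3% of the reads. Counted by Ctsb-201 alone, Ctsb was at 818 TPM and no longer the highest member. Map1lc3a was divided between its protein-coding transcript Map1lc3a-201 (51.6% of TPM) and the processed transcript Map1lc3a-203 (48.4%), and the first ranged from 59.8 to 64.8 TPM in females and 71.7 to 82.2 TPM in males, without overlap, while the second overlapped, at 53.9 to 64.8 TPM in females and 62.7 to 77.0 TPM in males. Mcoln1 had 47.4% of its TPM, and 37.7% of its reads, in transcripts with a retained intron. Ulk1 had 40.3% of its TPM but 4.86% of its reads in transcripts that are not protein-coding. Salmon divides reads among overlapping transcripts by an estimate, and no measure of that uncertainty was used here.

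The other members were read mainly from coding transcripts. A single transcript took over 90% of TPM for 10 genes, among them Lamp1-201 (99.1%), Ctsd-202 (99.2%), Atg5-201 (99.7%), Gabarapl1-201 (98.3%) and Ulk2-201 (98.4%). The leading transcript was the same in all 6 libraries for 31 of the 35 genes, the exceptions being Atg4c, Atg4d, Becn1 and Map1lc3a. In these 4 the leading pair lay close together, such as Atg4c-203 and Atg4c-201 at 50.7% and 46.9% of TPM. Gabarap, which had the largest share in its family, was divided between the protein-coding Gabarap-201 (60.4% to 63.8%) and Gabarap-202 (34.8% to 38.3%).

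**Figure D5:**
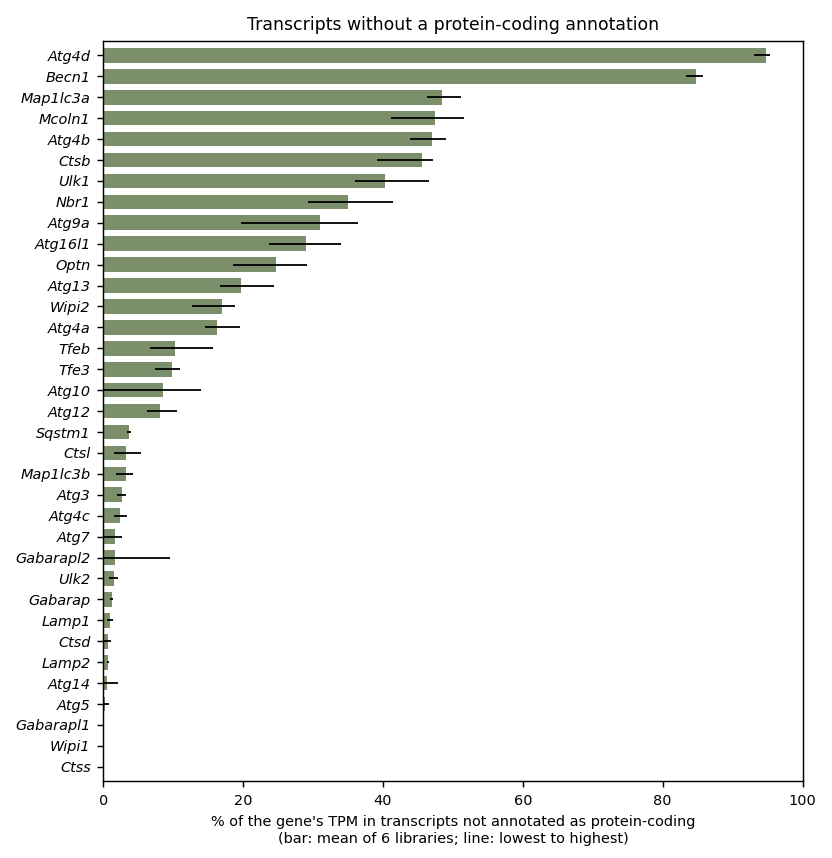
Share of each gene's TPM in transcripts not annotated as protein-coding (bars, mean of 6 libraries; lines, lowest to highest library; x axis from 0 to 100%). Atg4d (94.7%) and Becn1 (84.8%) stand apart from the next gene, Map1lc3a (48.4%), and Lamp2 is near the bottom (0.630%).

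Genes around these 35 in the same pathway were set beside them in 7 lists with 150 genes, of which 149 were tested (Lamp3, a lysosomal membrane gene, was too low). By edgeR 0 of the 149 passed, and 15 were higher and 6 lower in females at an unadjusted p under 0.05, against 5.82% and 8.74% of all genes. List medians ran from -0.03 to 0.13. The 37 lysosomal hydrolases and activators had a median of 0.13, with 27 above 0, against 53.6% of all genes. Psap, the precursor of the saposin activators, was at 1472 ± 365 TPM in females and 1314 ± 259 TPM in males, Lgmn, the legumain gene, at 597 ± 134 and 483 ± 137 TPM, and Ctsc, the cathepsin C gene, at 438 ± 63.2 and 402 ± 97.8 TPM (SD, n = 3 each). As for the cathepsins, female 2 had the largest sum of this list (6526 TPM) and male 1 the smallest (3894 TPM), and without both the median was -0.09. Without female 2 alone it was -0.0075, and without male 1 alone 0.0188.

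The remaining lists lay closer to the median of all genes. The 22 tested lysosomal membrane genes had a median of 0.10, led by the tetraspanin gene Cd63 at 1010 ± 35.3 TPM in females and 916 ± 35.3 TPM in males, followed by Laptm4a and by Cd68, which is also among the macrophage markers. Without female 2 and male 1 the median of this list was -0.04. The 18 subunits of the V-ATPase, the proton pump that acidifies the lysosome, had a median of 0.06, and its proteolipid gene Atp6v0c was at 639 ± 63.6 TPM in females and 587 ± 40.5 TPM in males. Atp6v0b and Atp6ap1 followed in level, with log2 fold changes of 0.13 and 0.06. Among 16 further genes of autophagosome formation (median 0.01), Vmp1, an endoplasmic reticulum protein gene, was at 373 ± 24.9 TPM in females and 287 ± 17.7 TPM in males, with a log2 fold change of 0.27 (SE 0.09, adjusted p = 0.229 by edgeR). Tmem41b and Wdr45b followed Vmp1 in level, with log2 fold changes of -0.03 and 0.03. The 16 other receptor and mitophagy genes, led by Fkbp8, Bnip3l and Ncoa4, had a median of -0.03. The 16 fusion genes, led by Rab7, Vamp8 and Arl8a, had one of 0.05. The 24 genes of mTORC1 and of TFEB control, led by Lamtor1, Lamtor5 and Rheb, had one of 0.04. Without female 2 and male 1 the median of the formation genes was -0.05 and that of the fusion genes -0.01.

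DESeq2 called 5 of the 148 listed genes to which it gave an adjusted p (3.38%, against 5.28% of all genes), and they are named here after their values were seen. Ctsf, the cathepsin F gene, had an edgeR log2 fold change of -0.75 (SE 0.11, adjusted p = 0.0844 by edgeR and 4.75e-06 by DESeq2). Abca2, a lipid transporter gene of lysosomes and myelin-forming cells, had -0.67 (SE 0.13, adjusted p = 0.127 by edgeR and 0.00021 by DESeq2). Lipa, the lysosomal acid lipase gene, had 0.54, and Fnip1 and Fnip2, partners of folliculin in mTORC1 control, had 0.34 and 0.53. Without female 3 edgeR called 3 of the 149 listed genes (2.01%, against 1.05% of all genes). They were Ctsf (adjusted p = 0.0348 by edgeR), Abca2 (0.0227) and Acp5 (0.0488), the tartrate-resistant acid phosphatase gene.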

How the data were processed

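Per the submitters' processing notes, Trimmomatic 0.39, Salmon 1.5.2 and MultiQC 1.9 were used; the sources used here give neither the genome build nor the annotation release. The deposited tables, 1 for each library, hold for each of 140789 transcripts an estimated count and TPM, per the file headers. Per the labels' protocols, libraries were poly-A selected and stranded, from 500 ng of RNA (integrity number 7.0 or above), and each library pools 2 animals.

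Estimated counts were summed per gene ID, rounded, filtered with filterByExpr (19129 genes kept), scaled by TMM and tested, female against male, with edgeR 4.0.16 (quasi-likelihood, robust) and Benjamini-Hochberg adjustment over all genes at 0.05. TPM was summed per gene. A member's levels are TPM; log2 fold changes come from the counts. The fit was tested on simulated data in which every gene had the same variation between libraries. It recovered 7.58% of changes of 0.5 log2, 67.2% of changes of 1 and 100% of changes of 2, and it called 6 unchanged genes. These rates hold for that shared variation and not for single members, whose SEs ran from 0.06 (Atg12) to 0.26 (Ctss). A gene that did not pass is therefore not shown to be equal between the sexes. DESeq2 1.42.0 and limma 3.58.1 were alternatives. Lamp2 shares were compared by exact permutation. Positions come from GENCODE M21 (GRCm38) by gene ID, which matched 94.8% of genes, and promoters from RefSeq by symbol.

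Members and lists were chosen with earlier results of these data known. All 35 members are named, with the 3 most abundant tested genes of each list. Some Schwann cell markers are not reported here and were left out of the marker sums. Same-numbered libraries of the sexes were not treated as paired, because the labels give only a replicate number (see the closing section). Intervals for counting error are small at this depth: 3 reads, the limit of a count of 0, are at most 0.0543 CPM. No 2 libraries agreed within sampling noise, with a chi-square of at least 29.1 per degree of freedom.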

Additional observations from a re-analysis of the deposited data

How the results depend on the processing

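The 35 genes were refitted under 18 alternatives. Of 630 log2 fold changes, 604 kept their direction and their side of the threshold, 2 gained a call (both Gabarapl1), and 24, in 9 genes, turned sign at a size of at most 0.105. With total count scaling Atg4b was at 0.0031, Gabarap at 0.0186, Tfeb at 0.0213 and Lamp1 at 0.0105. With limma on log2(TPM + 1) Atg4b was at 0.0289, Gabarap at 0.0114 and Tfeb at 0.0324, and with a length offset Atg4b was at 0.0221 and Tfeb at 0.0110. With 1 library left out at a time the log2 fold change ran from -0.0177 to 0.0313 for Atg3, -0.0555 to 0.0519 for Atg9a, -0.0646 to 0.1588 for Optn, -0.1346 to 0.0034 for Atg14, -0.0798 to 0.0146 for Atg4b, -0.0555 to 0.0047 for Gabarap, -0.1475 to 0.0524 for Lamp1 and -0.1089 to 0.0520 for Tfeb. Without female 2 and male 1 Optn was at -0.0065, Tfeb at 0.0334 and Ctss at -0.1050. The cause of these turns was not tested.

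Over all genes, edgeR called 3 higher and 18 lower in females. The counts were 44 and 147 without a filter, 233 and 638 with DESeq2, 1 and 10 with limma on log2(TPM + 1), and 6 higher with limma-voom and also without female 2 and male 1. Leaving out 1 library gave 0 to 17 higher and 4 to 188 lower, the largest counts without female 3. The replicate block gave 0 and 3. It rests on replicate numbers alone. Same-numbered libraries deviated with correlations of -0.0971, -0.189 and 0.0138, which do not settle whether they were paired. Under the block the adjusted p of Gabarapl1 was 0.189 by edgeR. Lower in females among the members, 1 was called without a filter and 1 with DESeq2. Among listed pathway genes 3 higher and 2 lower were called with DESeq2, 2 lower without a filter, and 0 to 1 higher and 0 to 2 lower when 1 library was left out. The 2 called without a filter were Ctsf and Abca2 (1.33% of 150 listed genes, against 0.598% of all genes).

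The Lamp2-201 share difference was -0.161 points in estimated reads and -0.418 to 0.757 points with 1 library left out. That of Lamp2-202 was 0.355 points and -0.593 to 0.645 points. With the replicate block (pairing by number) they were 0.316 and -0.102 points, and without female 2 and male 1 they were 1.03 and -0.910 points. With 3 libraries per sex the exact test of these shares could not pass 0.05 at any size of difference.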
